A study of Mus musculus with 79 samples.

Results

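The 42 chow diet (CD) arrays of the series are described here: the quadriceps transcriptome of 40 BXD strains and of both parental strains, C57BL/6J (B6) and DBA/2J (D2), with no contrast between diets. They make up 42 of the 79 arrays. Genes were taken from the probesets that carried a symbol, with 1 probeset per symbol by the highest mean over the CD arrays, which gave 22335 named genes. Of these, 11828 had a mean of 8 or more and are called bright. The 100 bright genes with the largest standard deviation (SD) across the 42 strains were taken as the variable set, which is 0.845% of the bright genes. The spread on CD chose these genes, so their SD is a description and carries no test.

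The BXD family is a panel of inbred strains made by crossing B6 with D2 and inbreeding the progeny, so each strain is a fixed mosaic of both parental genomes, and animals of a strain can be pooled or measured again under another condition. Quadriceps of the mouse consists mostly of fast, glycolytic fibres, with some slow (type I) fibres that use their own set of myosin, troponin and calcium pump genes. A dissected muscle also holds fat cells, tendon and connective tissue, blood, vessels and nerve, all of which contribute RNA.

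All animals were males, fasted overnight and sacrificed at 29 weeks of age. The CD animals had eaten a Harlan chow throughout, while the high fat diet (HFD) animals, used below only as a second set of arrays of the same strains, changed to HFD at 8 weeks. Each array held RNA pooled from about 5 animals of a single strain on a single diet. A strain on CD was therefore 1 array, and a difference between strains cannot be told apart from a difference between pools by the CD arrays alone. By their titles, 18 CD arrays belonged to batch 1 and 24 to batch 2, and the RNA had been extracted in 2 sets as well. The values are scores in arbitrary, log-like units, with the mean of each array set to 8.0, its SD to 2.0, and the base of the log not stated. The muscle markers were at the top of the scale in every strain. The mean of the 10 skeletal muscle genes lay between 14.50 and 14.71 (SD 0.05, n = 42).

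A few arrays stood apart before any gene was followed. ND6, a complex I subunit encoded by the mitochondrial genome, lay between 9.55 and 10.12 on 6 CD arrays (BXD43, BXD60, BXD65, BXD69, BXD92a and BXD95) and between 11.47 and 14.25 on the other 36. All 6 belonged to batch 1. The pairwise correlation of whole arrays, 0.975 to 0.991, did not single out a pair with identical values. The Rnu2 and fat cell groups are described with and without these 6 arrays. Without them 89 of the 100 genes stayed in the variable set.

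Most bright genes differed little between strains on CD. The median SD over the 11828 bright genes was 0.137, and the 10th and 90th percentiles were 0.097 and 0.227. In the variable set the median SD was 0.627, 4.59 times the bright median, and the smallest was 0.517. Only 7 bright genes had an SD above 1 and 116 had one above 0.5. By level, the median SD was 0.138 in the dimmest decile of the bright genes and 0.128 in the brightest. Of the 100 genes, 79 were also among the 100 most variable bright genes on the HFD arrays, which took no part in choosing them, and their median SD there was 0.623 against 0.1497 over the bright genes. Each of 2 pairs of symbols (Gm3579 with LOC433762, and Gm4638 with LOC280487) held the same values in every strain, so the set holds 98 distinct profiles.

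**Figure D1:**
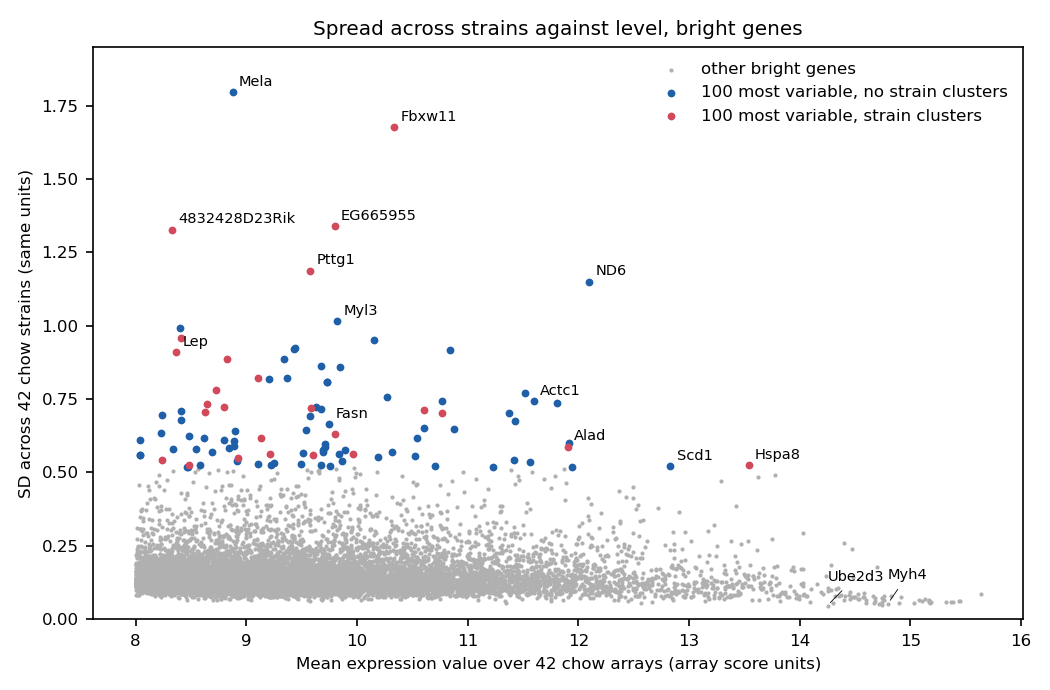
The horizontal axis is the mean score of each bright gene over the 42 CD arrays and the vertical axis its SD across strains. Grey points are bright genes outside the variable set, blue points are the variable genes without strain clusters and red points the 25 with strain clusters. Mela, at an SD of 1.80, lies highest, and the fast myosin gene Myh4, at 0.05, lies at the floor.

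The 3 most variable genes spanned several units. Mela, whose symbol belongs to a melanoma antigen of retroviral origin, ran from 5.84 in BXD62 through a median of 9.65 to 13.89 in BXD99 (SD 1.80). Its values left a gap of 1.94 units, with 17 strains at 7.70 or below and 25 at 9.63 or above. Fbxw11, an F-box subunit of ubiquitin ligases, ran from 7.82 in BXD85 through 11.36 to 12.19 in BXD50 (SD 1.68). EG665955 ran from 6.22 in BXD51 through 10.26 to 11.96 in BXD99 (SD 1.34). These 3 genes varied as much in batch 1 as in batch 2, with batch SDs of 1.80 and 1.83 for Mela, 1.62 and 1.75 for Fbxw11 and 1.31 and 1.38 for EG665955. B6 and D2 fell on opposite sides of the gap in Mela, at 7.47 and 10.15.

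Genes of very different roles followed. 4832428D23Rik, now Mettl21e, a lysine methyltransferase gene of muscle, ranged from 6.51 to 10.50 around a median of 7.77 (SD 1.33), and Pttg1, which encodes securin of the cell cycle, from 7.80 to 10.95 around 10.44 (SD 1.19). Slc15a2, a peptide transporter, ranged from 6.76 to 10.14 around 8.61 (SD 0.99). B6 and D2 were close to each other in Slc15a2, at 7.68 and 7.57, and all 40 BXD strains lay outside that interval, 28 above and 12 below. Pcp4l1 ranged from 8.55 to 11.63 around 10.45 (SD 0.95), and 38 of the 40 BXD strains lay outside the interval between the parents. The long terminal repeat transcript LTR_Affy_10394776 ranged from 9.53 to 12.76 (SD 0.92), Gm3579 and LOC433762 from 8.03 to 11.04 (SD 0.81), Gm10674 from 9.57 to 12.72 (SD 0.77) and Htra4, a secreted serine protease, from 9.37 to 11.89 (SD 0.76). Actc1, the cardiac alpha-actin that skeletal muscle uses in development and repair, ranged from 9.94 in BXD75 through 11.51 to 13.74 in BXD81 (SD 0.74). Over the whole set a median of 26 of the 40 BXD strains lay outside the interval between B6 and D2, and over all bright genes the median was 28.

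**Figure D2:**
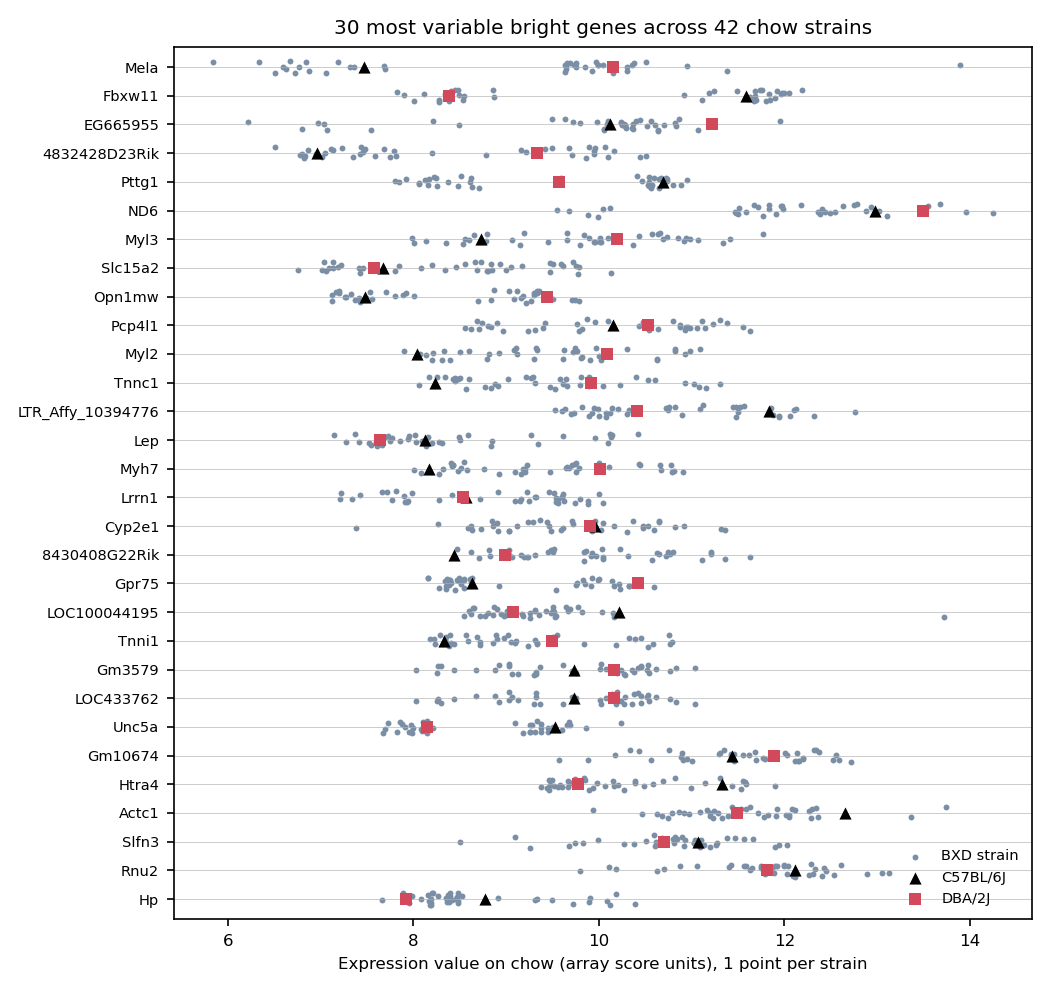
Each row is 1 of the 30 most variable bright genes and each point 1 of the 42 strains on CD, placed on the horizontal axis by its score. Black triangles mark B6 and red squares D2. Fbxw11, Unc5a and Gpr75 show separate clumps of strains, Myl3, Myl2 and Tnnc1 a continuous spread, and LOC100044195 a lone strain at 13.72.

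In 25 of the 100 genes the strains fell into 2 separate clusters by a mixture rule. The rule required a Bayesian information criterion (BIC) at least 10 lower for 2 normal components than for 1, means well apart for the spread within them (Ashman's D above 2), and at least 4 strains in each. Over all bright genes 98 met it, or 0.829%. A gene with clusters has a large SD by construction, so the share is a description. Fbxw11 had the largest difference between cluster means of the 25, 3.32 units. Its 17 low strains had a mean of 8.36 ± 0.29 (SD) and its 25 high strains 11.68 ± 0.31 (SD), and no strain lay between 8.87 and 10.92. EG665955 had 8 low strains at 7.29 ± 0.75 (SD) and 34 high at 10.39 ± 0.48 (SD). Mettl21e had 24 at 7.25 ± 0.42 (SD) and 18 at 9.76 ± 0.46 (SD).

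Several genes had clusters of almost equal size. Unc5a, a netrin receptor, had 21 strains at 7.98 ± 0.16 (SD) and 21 at 9.47 ± 0.26 (SD). Park2, which encodes the ubiquitin ligase parkin that marks damaged mitochondria, had 21 at 9.43 ± 0.12 (SD) and 21 at 10.51 ± 0.12 (SD). C5orf34 had 21 at 7.98 ± 0.16 (SD) and 21 at 8.98 ± 0.11 (SD). Opn1mw, a cone opsin gene on the X chromosome, had 20 at 7.46 ± 0.28 (SD) and 22 at 9.28 ± 0.28 (SD). Other genes were uneven. Alad, the second enzyme of heme synthesis, of which DBA/2J is known to carry extra gene copies, had 9 strains at 10.85 ± 0.15 (SD) and 33 at 12.20 ± 0.18 (SD). B6, at 10.995, was among the low strains and D2, at 12.11, among the high ones.

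B6 and D2 lay in different clusters in 20 of the 25 genes. B6 was high in 11 of them (Fbxw11, Pttg1, Unc5a, Tmc7, Gm4980, CCL_complex, Asb15, Neu2, Lancl1, Ccdc85a and C5orf34) and D2 in 9 (Mettl21e, Opn1mw, Gpr75, LTR_Affy_10556018, Gm8840, Gm13251, Alad, Park2 and Snord53). In the other 5 genes both parents lay in the same cluster. Both were high in EG665955 and in Hspa8, the constitutive heat shock cognate, where 19 strains averaged 14.08 and 23 averaged 13.10. Both were low in Lrrn1, a neuronal leucine-rich repeat gene, in Lep and in Hp. By the RefSeq table, chromosomes 1 and 11 held 4 of these genes each, chromosome 6 held 3, chromosomes 4, 7 and 17 held 2 each, and chromosomes 8, 9, 13 and X held 1 each. No chromosome was assigned to EG665955, LTR_Affy_10556018, CCL_complex and C5orf34.

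A few of these genes split the strains alike. Fbxw11 and Gpr75, a receptor gene, both on chromosome 11, split all 42 strains in the same place but in opposite directions: the 17 strains low for Fbxw11 were the 17 high for Gpr75, at 10.06 ± 0.28 (SD) against 8.46 ± 0.16 (SD) in the other 25. Ccdc85a, also on chromosome 11, followed Fbxw11 in 41 of the 42 strains. Pttg1, the remaining gene with clusters on that chromosome, fell on the same side as Fbxw11 in 29 strains. The 4 genes of chromosome 1 shared no common split, the closest pair being Neu2, a sialidase, and Lancl1, alike in 27 strains, and Mettl21e and Lancl1, opposite in 27. Lep and Hp, on chromosomes 6 and 8, split 41 of the 42 strains alike. LTR_Affy_10556018 and Gm13251, now Zfp992 on chromosome 4, split 40 alike.

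Arrays of the same strains on HFD, 37 in all, had not been used to form these clusters. In 14 of the 25 genes every one of the 37 strains was on the same side of the CD midpoint on its HFD array, and in 20 genes at most 2 strains changed side. Fbxw11, Gpr75, Unc5a, Alad, Park2, Lancl1 and C5orf34 were among those that kept all 37. Lep, Hp and Gm13251 had the lowest counts. Lep kept 10 of 37 strains on the same side of its CD midpoint and Hp 18 of 37. Gm13251 kept 27. The midpoint is that of the CD arrays, and the means over all CD and all HFD arrays were 8.37 and 9.95 for Lep, 8.65 and 9.43 for Hp and 9.13 and 9.64 for Gm13251, so for these genes the counts do not separate a shift of all strains from strains changing place. Mela, which did not meet the mixture rule, kept all 37 on the same side of its gap.

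**Figure D3:**
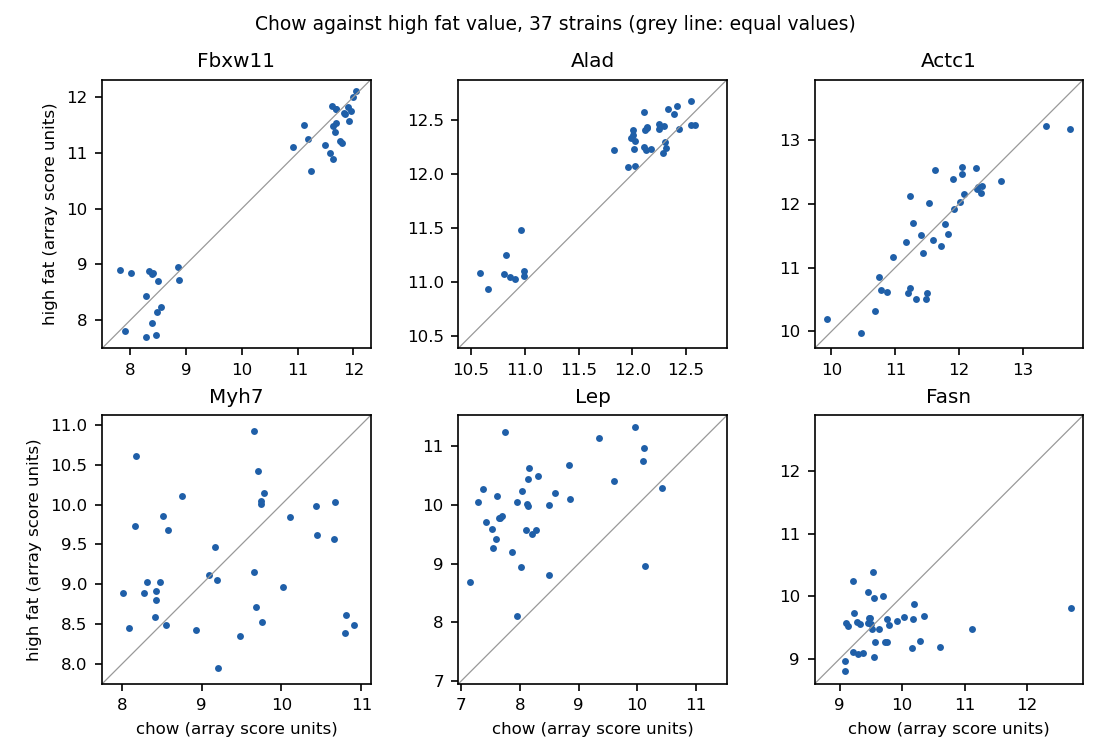
Each panel sets the CD score of a gene (horizontal) against its HFD score (vertical) in the 37 strains with both arrays, and the grey line marks equal values. Fbxw11 and Alad form 2 clumps along the line, Actc1 follows it, and Myh7, Lep and Fasn scatter widely.

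The variable genes were joined by average linkage of Pearson's r across the 42 CD strains, cut at r = 0.5, into 5 groups of 4 or more genes that held 36 genes. Another 12 groups had 2 or 3 members and 34 genes joined none. Over all 4950 pairs of the set the mean r was 0.03, which is the background for the groups. The correlations formed the groups and are given with no p. Each group is named below by its hub, the member with the highest mean r to the others.

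The largest group held slow fibre genes. Its 14 members were Myl2, the regulatory light chain of slow and cardiac myosin and the hub, with Atp2a2 (the slow and cardiac calcium pump SERCA2), Myh7 (slow myosin heavy chain), Tnnc1, Tnni1 and Tnnt1 (the slow or shared slow and cardiac troponins C, I and T), Myl3 (slow and ventricular essential light chain), Myoz2 (a Z-disc protein of slow and cardiac muscle), Ankrd2 (a stretch-responsive muscle gene), 4 secreted matrix or tendon proteins, Chad, Prg4, Fmod and Angptl7, and Alad. Promoters of 2 contractile members are shown because such genes moved together, with capitals marking the MCAT element, CATTCC on either strand, a motif of many muscle promoters. They run from 250 bases before to 50 after the RefSeq start site in GRCm38.p6, for Tnnc1 at chr14:31208062-31208361 and for Myl3 at chr9:110763428-110763727, both on the plus strand.
Tnnc1: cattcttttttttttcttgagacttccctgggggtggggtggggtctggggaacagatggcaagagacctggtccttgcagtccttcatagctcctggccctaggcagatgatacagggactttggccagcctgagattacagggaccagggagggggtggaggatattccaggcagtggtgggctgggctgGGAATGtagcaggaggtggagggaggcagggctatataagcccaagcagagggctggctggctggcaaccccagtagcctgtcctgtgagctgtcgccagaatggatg
Myl3: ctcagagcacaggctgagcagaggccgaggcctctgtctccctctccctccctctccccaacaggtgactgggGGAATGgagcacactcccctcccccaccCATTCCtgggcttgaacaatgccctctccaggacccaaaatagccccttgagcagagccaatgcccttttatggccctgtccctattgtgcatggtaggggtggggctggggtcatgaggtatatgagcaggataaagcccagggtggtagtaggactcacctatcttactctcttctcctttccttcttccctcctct
The element began at base -58 in Tnnc1 and at -177 and -149 in Myl3. It was found in 3 of the 7 contractile members with a promoter in the RefSeq table (Myh7, Myl3 and Tnnc1) and in 16.6% of all genes there.

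The slow fibre genes differed widely from strain to strain. Myl2 ran from 7.90 in BXD96 through a median of 9.62 to 11.09 in BXD50 (SD 0.92), and Myh7 from 8.01 in BXD75 through 9.22 to 10.91 in BXD51 (SD 0.89). Myl3 was the widest, from 7.99 through 9.96 to 11.76 (SD 1.02). Tnnc1 ran from 8.06 to 11.30 (SD 0.92), Tnni1 from 8.18 to 10.79 (SD 0.82) and Atp2a2 from 10.33 to 12.78 (SD 0.70). The values were spread without a gap, and over the members without clusters BXD50, BXD84 and BXD97 ranked highest and BXD81, B6 and BXD64 lowest. B6 was below and D2 above the median in each of these 6 genes, at 8.04 and 10.09 in Myl2 and 8.17 and 10.02 in Myh7. The spread was larger in batch 2 than in batch 1, with SDs of 1.03 and 0.78 for Myl2 and 1.08 and 0.68 for Tnnc1.

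Slow and fast fibre genes differed in how much they varied. Of 11 bright slow fibre genes 8 were in the variable set, and their median SD was 0.703 against 0.137 over all bright genes. None of 12 bright fast fibre genes was in it, and their median SD was 0.104. Myh4, the heavy chain of the fastest fibres, ranged only from 14.66 to 14.88 and was among the 5 least variable bright genes (SD 0.05). Myh1 had an SD of 0.17 and Myh2, the heavy chain of fast oxidative fibres, had the largest SD of the fast list, 0.385, with values from 12.18 to 13.98. The fast genes lie close to the top of the scale, and the part of this in their small SD was not tested.

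Contractile and matrix members formed 2 tight blocks with a looser link between them. The mean r was 0.88 among the 8 contractile genes (28 pairs), 0.84 among the 4 matrix genes (6 pairs) and 0.58 between the blocks (32 pairs). The link between blocks was 0.43 in batch 1 and 0.69 in batch 2. Chad, a cartilage and tendon matrix protein, ran from 8.00 in BXD81 through 9.80 to 10.75 in BXD51 (SD 0.72), and its r with Myl2 was 0.71. Prg4, the lubricant of joints and tendons, had an r of 0.67 with Myl2, and Fmod, a collagen-binding proteoglycan, 0.59. BXD81 was the lowest strain for Chad, Prg4, Fmod, Ankrd2, Myoz2, Atp2a2, Tnnc1 and Tnni1, and the highest for Actc1. On the HFD arrays the blocks were still present, with mean r of 0.80 and 0.69, and the link between them was 0.31. The difference between diets in this link was not tested.

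The test of the group on arrays that had not formed it was a limma fit of every named gene on the hub, with batch as a term, over the 37 HFD arrays. Of the 13 other members 8 rose with Myl2 at an adjusted p below 0.05, against 27 of 22334 named genes, or 0.121%. They were the 7 contractile members and Ankrd2. Myh7 rose by 0.85 ± 0.07 (SE) units per unit of Myl2 (limma, adjusted p = 5.27e-11), Atp2a2 by 0.58 ± 0.05 (adjusted p = 9.08e-11) and Ankrd2 by 0.47 ± 0.10 (adjusted p = 0.0361). The 5 others did not pass. The slopes were 0.25 ± 0.11 (SE, adjusted p = 0.722) for Chad, 0.11 ± 0.11 (adjusted p = 0.939) for Prg4, 0.11 ± 0.09 (adjusted p = 0.904) for Fmod, 0.24 ± 0.10 (adjusted p = 0.655) for Angptl7 and 0.03 ± 0.12 (adjusted p = 0.992) for Alad in the limma fit.

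Other genes outside the set moved with Myl2 on CD. The mean of the 3 slow fibre genes outside the group followed it with r = 0.89 (0.94 in batch 1 and 0.86 in batch 2). The mean of 19 fatty acid oxidation genes had r = 0.62 (0.57 and 0.65), and 17 of these genes had an r above 0.3 with Myl2, as 6.79% of all bright genes did. The mean of the 6 tendon genes left in that list had r = 0.62 (0.58 and 0.66) and that of the 8 Schwann cell genes r = 0.47 (0.51 and 0.46). The fast fibre mean had r = 0.21, with 2 of 12 genes above 0.3 and 5 below -0.3. In pooled bulk muscle, more cells of a type and more RNA per cell cannot be told apart.

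**Figure D4:**
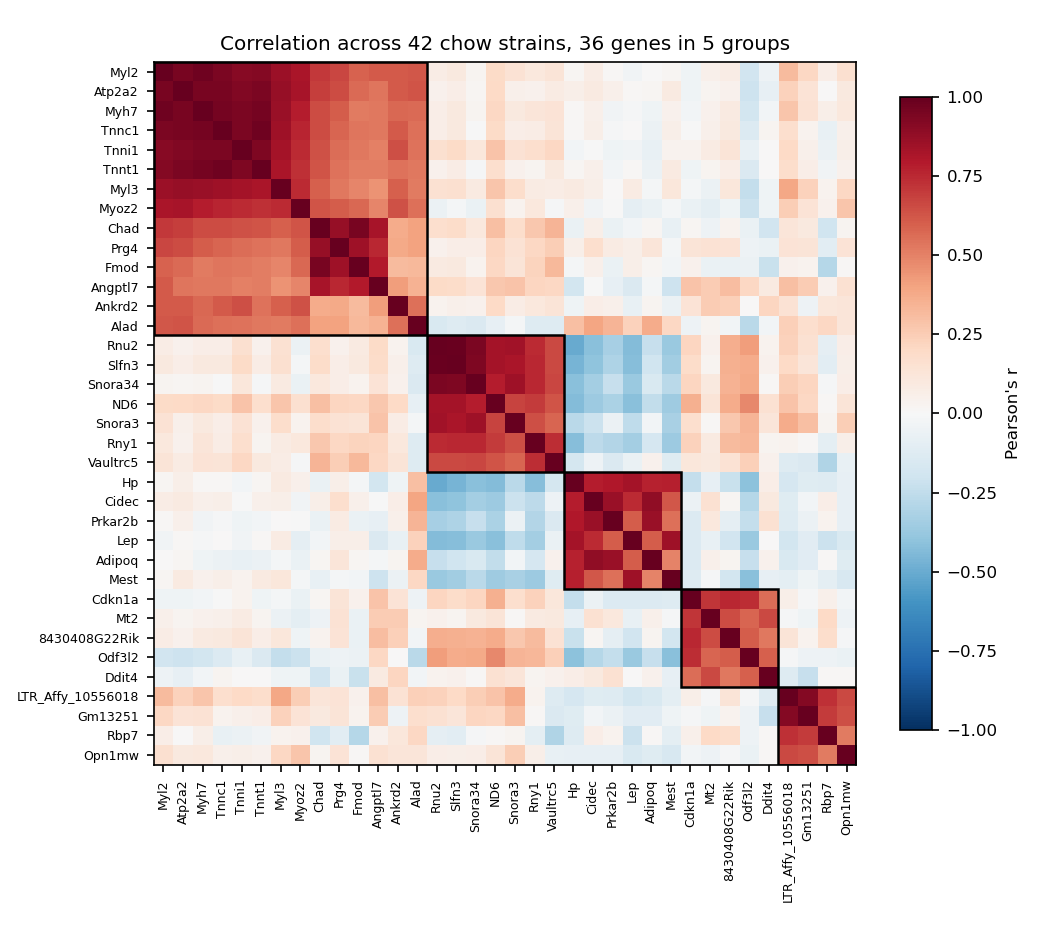
Pearson's r across the 42 CD strains for each pair of the 36 grouped genes, from blue (-1) to red (1), with a black frame around each of the 5 groups. The contractile and the matrix genes appear as 2 darker blocks within the first frame, and the pairs of a gene of the Rnu2 group with a fat cell gene lie mostly in pale blue, below 0.

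Fat cell genes formed the third group. Hp, the hub, encodes haptoglobin, a hemoglobin-binding plasma protein that fat cells also secrete. The others were Lep (leptin, the satiety hormone made by fat cells), Cidec (a lipid droplet protein), Adipoq (adiponectin), Prkar2b (the protein kinase A subunit typical of fat) and Mest (an imprinted gene that is high in expanding fat). Lep ran from 7.15 in BXD55 through 8.13 to 10.42 in BXD66 (SD 0.91) and Hp from 7.67 in BXD55 through 8.39 to 10.39 in BXD92a (SD 0.73). Both split the strains, with 9 high for Lep at 9.90 ± 0.40 (SD) against 33 at 7.95 ± 0.43 (SD), and 10 high for Hp at 9.85 ± 0.37 (SD) against 32 at 8.28 ± 0.26 (SD). The 10 strains high for Hp were BXD56, BXD60, BXD65, BXD66, BXD68, BXD69, BXD79, BXD85, BXD92a and BXD98, and all but BXD56 were the ones high for Lep. Because of this split no r over all strains is quoted for Hp or Lep, although such r formed the group and sets their colours in the plot of correlations.

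The 4 members without clusters, Cidec, Prkar2b, Adipoq and Mest, had a mean r of 0.71 over the 42 strains (0.67 in batch 1 and 0.75 in batch 2). Within the 32 strains low for Hp the mean r of the 6 genes was 0.47, and within the 10 high strains 0.13, with single pairs from -0.47 to 0.89. In the strains high and low for Hp, mean values were 10.40 and 9.50 for Adipoq and 9.18 and 8.26 for Mest. Of the 12 fat cell list genes outside the group, 9 had the higher mean in the strains high for Hp, and the mean of the 12 was 10.21 there (9.91 to 11.04) and 10.06 in the others (9.66 to 10.59). Among the variable genes, means in the high and low strains were 9.65 and 9.97 for Cfd (adipsin), 9.22 and 9.22 for Pck1 and 9.24 and 9.81 for Cyp2e1, a cytochrome P450. Cfd, Pck1 and Cyp2e1 formed a small group of their own (mean r 0.67). Cyp2e1 itself ran from 7.38 in BXD98 through 9.66 to 11.36 in BXD51 (SD 0.86).

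The fat cell group also moved with the arrays that stood apart. Of the 6 arrays with a low ND6, 4 (BXD60, BXD65, BXD69 and BXD92a) were among the 10 high for Hp, and these 4 were the only batch 1 arrays in that cluster. Without the 6 arrays the mean r of the 4 members without clusters was 0.68, and the SD was 0.612 for Hp and 0.812 for Lep. Within the batch 1 arrays then left it was 0.267 and 0.437. The 6 strains still high for Hp, all of batch 2, and the 30 low ones had means of 9.73 and 8.28 for Hp, 9.60 and 7.96 for Lep, 10.46 and 9.49 for Adipoq and 9.09 and 8.27 for Mest. The mean r of the 6 genes was then 0.51 within the low and 0.14 within the high strains. On the HFD arrays all 5 members rose with Hp in the limma fit, against 1.24% of the named genes, with slopes from 0.57 to 0.84. Lep rose by 0.84 ± 0.08 (SE) units per unit of Hp (limma, adjusted p = 2.6e-09). Of the fat cell list 6 of 14 bright genes were in the variable set (median SD 0.431), and 0 of 2 in the brown fat list. The means of the collagen and macrophage lists were also higher in the strains high for Hp. The mean of the 12 collagen and matrix genes was 10.48 there (10.32 to 10.60) and 10.29 in the others (10.04 to 10.61), and 11 of the 12 genes had the higher mean. The mean of the 10 macrophage genes was 8.85 (8.62 to 9.02) against 8.68 (8.29 to 9.02), with 9 of the 10 higher. The mean of the 10 skeletal muscle genes was 14.62 (14.50 to 14.71) against 14.63 (14.52 to 14.71), with 1 of the 10 higher. Without the 6 arrays low for ND6 the same 4 counts were 9 of 12 for the fat cell list, 11 of 12 for collagen and matrix, 9 of 10 for macrophages and 1 of 10 for skeletal muscle. The ranges overlapped in all of these lists, and their part in the result was not tested. The share of all bright genes with the higher mean in these strains was not computed. The counts therefore cannot be told apart from a general shift between the arrays.

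Fatty acid synthesis genes were highest in the same strain, BXD56. Fasn, the fatty acid synthase, was at 12.70 in BXD56, at 11.13 in the next strain and at 9.56 in the median strain. Elovl6, an elongase of fatty acids, was at 11.22 in BXD56, 9.70 in the next and 8.21 in the median, and Scd1, a desaturase, at 14.32, 13.77 and 12.84. The 3 genes formed a small group on CD (mean r 0.77, 0.68 without BXD56, and 0.62 on the HFD arrays). BXD56 had the highest value of all strains in 10 genes of the set, which included Scd2, Pck1, Prkar2b, Adipoq and the early response gene Nr4a3, and in 7 of the 10 bright fatty acid synthesis genes, or 4 of the 7 that are outside the set. Of the 14 bright fat cell genes it was the highest strain in 6 (4 of the 8 outside the set) and among the top 3 in 10, and their mean was 10.996 in BXD56 against a median of 10.135 over the strains. The part of fat cell RNA in the BXD56 values was not tested. The share of all bright genes in which BXD56 was highest was not computed, so these counts have no background beside them. Without BXD56, the strain farthest from its median, the SD of Elovl6 went from 0.581 to 0.365, that of Fasn from 0.666 to 0.481 and that of Scd1 from 0.522 to 0.472. All were above the bright median and below the smallest SD of the variable set, which is over all strains. Without their own farthest strain, Prg4 (0.493) and Mest (0.488) were below that limit too. On the HFD array of BXD56, Fasn, at 9.81, and Scd1, at 13.64, ranked 7 of 37 and Elovl6, at 7.99, ranked 25. The 7 other genes for which BXD56 was highest on CD ranked between 2 (Pck1, at 9.97) and 6 (Scd2 and Prkar2b) there.

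The fourth group held Cdkn1a, the cell cycle inhibitor p21 and the hub, with Mt2 (a metallothionein), 8430408G22Rik (now Depp1), Odf3l2 and Ddit4 (REDD1, an inhibitor of mTOR signalling). Several of these are known targets of glucocorticoids or of fasting. Cdkn1a ran from 9.62 in B6 through 10.68 to 11.67 in BXD87 (SD 0.52), and Depp1 from 8.43 in B6 through 9.85 to 11.63 in BXD44 (SD 0.86). Mt2 ran from 10.63, again in B6, to 12.94 in BXD70 (SD 0.54). B6 was thus the lowest of the 42 strains in 3 of the 5 genes. The mean r was 0.64 on CD (0.67 in batch 1 and 0.62 in batch 2). All 4 other members rose with Cdkn1a on the HFD arrays, as 2.34% of the named genes did, with slopes from 0.69 to 1.10. Ddit4 rose by 0.83 ± 0.08 (SE) per unit (limma, adjusted p = 3.08e-08). Beyond the group, the mean of 10 glucocorticoid response genes followed Cdkn1a on CD with r = 0.80 (0.77 in batch 1 and 0.86 in batch 2), and 9 of them had an r above 0.3, against 9.12% of the bright genes. The mean of 14 fasting and atrophy genes had r = 0.62 (0.63 and 0.60), with 10 of 14 above 0.3.

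**Figure D5:**
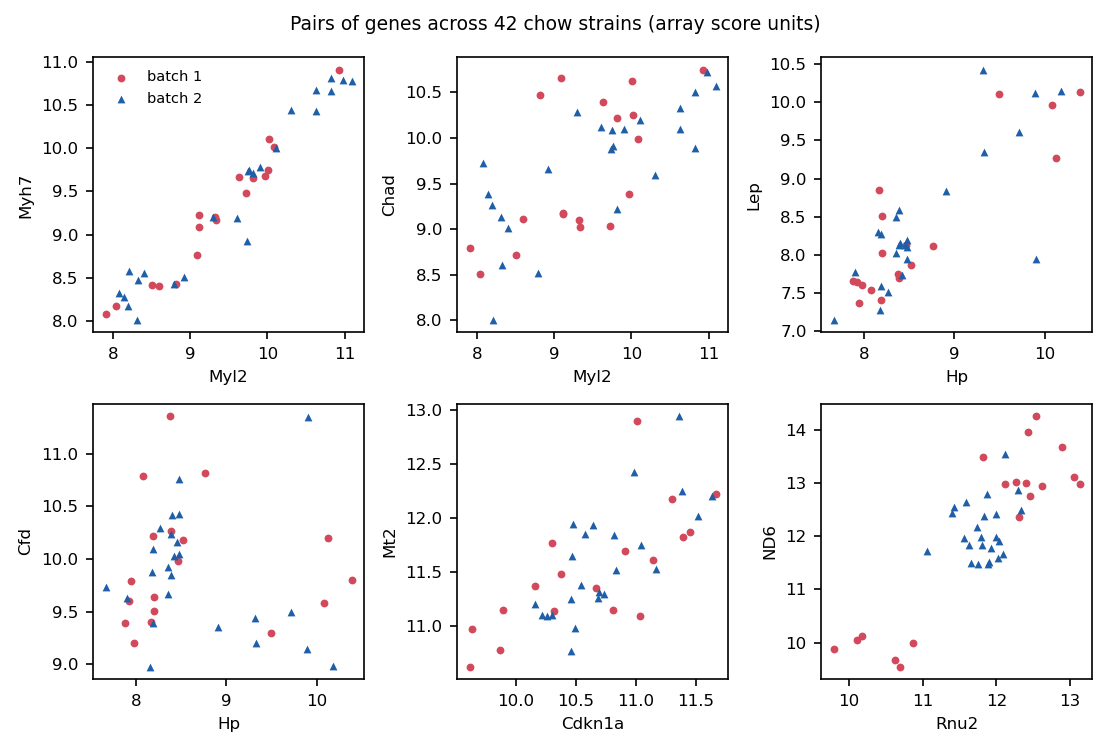
Each panel plots the CD scores of 2 genes against each other in 42 strains, with red circles for batch 1 and blue triangles for batch 2. Myh7 follows Myl2 closely and Chad follows it loosely, all but 1 of the 10 strains high for Hp are high for Lep and most of them are not high for Cfd, and ND6 and Rnu2 set 6 batch 1 arrays apart at the lower left.

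The second group had 7 members, 5 small non-coding RNAs and the protein-coding genes ND6 and Slfn3. The members were Rnu2 (U2 spliceosomal RNA, the hub), Snora34 and Snora3 (small nucleolar RNAs that guide pseudouridylation), Rny1 (a Y RNA), Vaultrc5 (a vault RNA), ND6 and Slfn3. Rnu2 ran from 9.79 in BXD69 through 11.89 to 13.13 in BXD44 (SD 0.74), Slfn3 from 8.50 to 12.02 (SD 0.74) and ND6 from 9.55 through 12.27 to 14.25 (SD 1.15). Slfn3 and Rnu2 were the closest pair of the group. Their r was 0.989 on CD (0.994 in batch 1 and 0.938 in batch 2) and 0.987 on the HFD arrays. Whether the Slfn3 probeset measures a signal apart from that of Rnu2 was not tested. The 6 arrays low for ND6 were also the 6 lowest for Rnu2, at 9.79 to 10.87 against 11.06 to 13.13 on the others, and for Slfn3, at 8.50 to 9.83 against 9.99 to 12.02. The spread of the group was mostly a batch 1 spread, with SDs of 1.10 and 0.29 in batches 1 and 2 for Rnu2, 1.10 and 0.30 for Slfn3 and 1.68 and 0.53 for ND6.

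The correlations in this group differed between batches. The mean r over all 42 arrays was 0.76, in batch 1 0.85 and in batch 2 0.42, and without the 6 arrays it was 0.60. Without them the SD was below the smallest SD of the variable set, as taken over all 42 arrays, in 6 of the 7 members. It ran from 0.412 for Snora3 to 0.487 for Rny1, with 0.454 for Rnu2 and 0.456 for Slfn3, and it was 0.746 for ND6. On the HFD arrays 6 of 6 members rose with Rnu2 in the limma fit, against 0.264% of the named genes. There, too, ND6 set 3 batch 1 arrays apart (BXD43, BXD65 and BXD84), between 8.45 and 10.20 against 11.13 or more on the other 34, and without these 4 of the 6 members passed. The part of RNA quality and of the extraction set in this group was not tested.

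The last group held LTR_Affy_10556018, a long terminal repeat transcript and the hub, Gm13251 (Zfp992, a zinc finger gene), Rbp7 (a retinol-binding protein) and Opn1mw. The hub had 26 strains at 9.07 ± 0.19 (SD) and 16 at 10.43 ± 0.36 (SD), and Gm13251 24 at 8.63 ± 0.15 (SD) and 18 at 9.80 ± 0.27 (SD). Rbp7 ran from 7.63 in BXD84 through 8.50 to 10.07 in BXD81 (SD 0.62). Gm13251 and Rbp7 both lie on chromosome 4 and Opn1mw on X. On the HFD arrays 3 of 3 members rose with the hub, against 0.0806% of the named genes: Gm13251 by 0.69 ± 0.07 (SE, limma, adjusted p = 4.35e-08), Rbp7 by 0.56 ± 0.12 (adjusted p = 0.0194) and Opn1mw by 0.97 ± 0.20 (adjusted p = 0.0205). The hub splits the strains, so these slopes set mainly its high against its low strains. The HFD arrays hold the same strains, and the CD values of all 4 genes recurred on them, as described below. A match of these genes across strains on CD would thus repeat on HFD, so this fit is no independent test of it. Without both parental strains 1 of 3 passed.

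A few genes stood out in a lone strain, among them the interferon-inducible Iigp1 and Irgm2. LOC100044195, which matched no current gene name, was at 13.72 in BXD80, and the other 41 strains lay between 8.55 and 10.22. Iigp1 and Irgm2, immunity-related GTPases that interferon-gamma induces, were at 11.85 and 11.69 in BXD80, against at most 9.16 and 9.73 elsewhere. Without BXD80 their SDs went from 0.823 to 0.456, from 0.697 to 0.404 and from 0.677 to 0.440. Each was then below 0.517, the smallest SD of the variable set over all strains. Of the 10 bright genes of the interferon list outside the set, BXD80 was the highest strain in 5. The share of all bright genes in which BXD80 was highest was not computed. The mean r of the 3 genes was 0.81 over all strains and 0.47 without BXD80. On the HFD array of BXD80, from another pool of animals, the 3 genes were again the highest of the 37, at 12.27, 10.86 and 10.51. The promoter of Irgm2, chr11:58214727-58215026 on the plus strand of GRCm38.p6, is shown because it holds both interferon motifs that were searched on both strands. Capitals mark the GAS motif TTCNNNGAA, at -75, and the ISRE motif (interferon-stimulated response element), at -64, which do not overlap.
Irgm2: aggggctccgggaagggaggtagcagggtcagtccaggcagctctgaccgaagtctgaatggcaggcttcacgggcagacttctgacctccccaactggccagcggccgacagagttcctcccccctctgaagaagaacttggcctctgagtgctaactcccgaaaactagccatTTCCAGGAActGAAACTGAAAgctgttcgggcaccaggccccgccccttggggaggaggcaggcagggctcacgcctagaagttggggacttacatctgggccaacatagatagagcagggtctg
Of 13 genes, the 3 above and the other bright genes of the list, 8 had a promoter in the RefSeq table. The ISRE motif was in 7 of the 8 and in 3.99% of all genes there, and the GAS motif in 3 of the 8 and in 9.55%. Of the 3 genes above, only Irgm2 was among the 7 with the ISRE motif. The others came from the interferon list, which was chosen for its response to interferon, so this share does not bear on BXD80. The match is a description of letters and not of binding.

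The gene lists described how much each cell type and pathway varied on CD, beside the median SD of 0.137 over the bright genes. High medians were found in the MHC class II list (0.391 over 5 bright genes), the tendon list (0.389 over 7), the red blood cell list (0.473 over 4), the fatty acid synthesis list (0.346 over 10), the fasting and atrophy list (0.327 over 15), the glucocorticoid list (0.324 over 12), the interferon list (0.306 over 11) and the mast cell list (0.303 over 3). Medians were lower in the regeneration list (0.278 over 9), where Actc1 and Ankrd2 were in the set, the immediate early list (0.277 over 11), the heat shock list (0.262 over 10), the MHC class I list (0.232 over 9), the macrophage list (0.232 over 8) and the fatty acid oxidation list (0.218 over 19). They came closer to the bright median in the denervation list (0.193 over 8), the collagen list (0.188 over 12), the Schwann cell list (0.181 over 5), the circadian clock list (0.178 over 17), the skin list (0.141 over 3) and the brown fat list (0.130 over 2), and below it in the skeletal muscle list (0.074 over 10). No gene of the B and plasma cell list was bright, and its mean lay between 6.78 and 7.29. Hba-a1, a hemoglobin gene, was the one red blood cell gene in the set, from 10.10 to 12.87 (SD 0.52).

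Whether a strain's value on CD recurred on its HFD array was tested for all named genes by Pearson's r over the 37 strains, with Benjamini-Hochberg adjustment over 22335 genes. A positive relation was called for 12.6% of all named genes and 20.8% of the bright genes. In the variable set 64 of 100 were called, and of the 75 without strain clusters 40 were, against 20.2% of bright genes without clusters. The median r was 0.47 in these 75 and 0.25 over such bright genes. No member was called with a negative r.

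Genes that did not meet the mixture rule recurred to different degrees. Mela did not meet it either despite its gap, so the strains may still form clumps in some of these genes. Slc15a2 had r = 0.90 (rho = 0.86, permutation p = 1e-05 for each, the smallest that the draws can give, adjusted p = 2.97e-11), with r = 0.89 within batch 1 (12 strains on both diets) and 0.94 within batch 2 (17 strains). Kcnab1, a potassium channel subunit, had r = 0.90 (rho = 0.82, adjusted p = 1.83e-11) and Actc1 r = 0.86 (rho = 0.84, adjusted p = 2.8e-09). Pcp4l1, Igfn1, a gene of skeletal muscle, and Nnt, the proton-pumping transhydrogenase that C57BL/6J is known to carry in a deleted form, had r of 0.84, 0.84 and 0.83. Nnt was lowest in B6, at 9.26, against a median of 10.59. Leaving out the 2 strains farthest from the median gave r of 0.89 for Slc15a2, 0.86 for Kcnab1, 0.83 for Actc1, 0.81 for Pcp4l1, 0.81 for Igfn1 and 0.85 for Nnt. Hba-a1 was called with r = 0.50 (adjusted p = 0.0188, rho = 0.24, permutation p = 0.154 for rho) but had r = 0.23 without its 2 farthest strains, and its lowest CD value was on an array low for ND6, BXD65.

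The slow fibre genes did not recur at a level that passed the test. None of the 11 bright slow fibre genes was called, and 0 had an unadjusted p below 0.05, with r from 0.09 to 0.27. Myh7 had r = 0.09 (95% interval -0.24 to 0.40, rho = 0.10, permutation p = 0.59, adjusted p = 0.804), and Myl2 r = 0.10 (interval -0.23 to 0.41, rho = 0.06, permutation p = 0.536, adjusted p = 0.77). Within batches Myh7 had r = -0.07 over the 12 strains of batch 1 and 0.47 over the 17 of batch 2. In batch 2 r was also 0.55 for Tnnt1, 0.53 for Myl3, 0.53 for Atp2a2, 0.49 for Tnnc1, 0.44 for Tnni1, 0.32 for Myl2 and 0.07 for Myoz2. These genes had r from -0.14 (Myl2) to 0.28 (Tnni1) in batch 1. None of the 12 fast fibre genes and none of the 7 tendon genes was called either, and 1 and 0 of them had an unadjusted p below 0.05. The intervals are wide at 37 strains, so these values do not show that strain values failed to recur.

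The other groups differed from each other. In the LTR_Affy_10556018 group 4 of 4 were called, Rbp7, the member without clusters, with r = 0.87 (adjusted p = 4.54e-10). In the Cdkn1a group 2 of 5 genes were called, Odf3l2 with r = 0.55 (adjusted p = 0.00699) and Cdkn1a with r = 0.45 (adjusted p = 0.0442), and in the fat cell group 1 of 6, a gene with strain clusters called by r over all 37 strains. None of Cidec, Prkar2b, Adipoq and Mest was called, with adjusted p of 0.29, 0.0511, 0.139 and 0.31. The r within the low and high strains was 0.20 and -0.11 for Hp and 0.23 and -0.36 for Lep. Of the lists, 5 of 11 interferon genes, 5 of 17 clock genes, 4 of 12 collagen genes, 3 of 12 glucocorticoid genes, 3 of 10 fatty acid synthesis genes and 1 of 14 fat cell genes were called, beside 20.8% of all bright genes. Fasn had r = 0.12 (adjusted p = 0.719), Elovl6 -0.18 (adjusted p = 0.573) and Cyp2e1 0.11 (adjusted p = 0.769). In the Rnu2 group Rnu2 (r = 0.47, adjusted p = 0.0329) and Vaultrc5 (r = 0.49, adjusted p = 0.0236) were called. With both arrays in batch 1, both in batch 2 and in different batches, r was 0.82, 0.24 and -0.15 for Rnu2 and 0.79, 0.39 and 0.03 for Vaultrc5. Rnu2 had r = 0.42 and was no longer called without the strains that had ND6 under 11 on either array. LOC100044195, Irgm2 and Iigp1 had r of 0.75, 0.77 and 0.62, and 0.64, 0.58 and 0.48 without their 2 farthest strains, which include BXD80.

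At the limit of the set the values changed smoothly. The last 3 genes inside were Fmod, Mest and Hba-a1, with SDs of 0.519, 0.519 and 0.517, and the first 3 outside were Gm15470, Csrp3, a muscle LIM protein of slow fibres, and LOC100039147, with 0.514, 0.513 and 0.512. Just under the brightness limit were 3 genes with large SDs: H2-Ea-ps, the MHC class II alpha chain gene that B6 is known to lack in active form (mean 7.75, SD 1.70), the mast cell protease gene Mcpt2 (mean 7.87, SD 1.199) and Lrrcc1 (mean 7.86, SD 0.85). At the other end, the 5 bright genes with the smallest SD, 0.05 each, were Ube2d3, the mitochondrial ATP6, Myh4, Eno3, the muscle enolase, and Nrd1. The strains that were most often the highest or the lowest of the 42 in the set were BXD81 (12 genes, 8 of them lowest), BXD50 (11), and BXD51, BXD56, BXD69 and BXD96 (10 each). All 10 of BXD56 were highest values.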

How the data were processed

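Quadriceps RNA was amplified and hybridized to Affymetrix arrays, 1 array per strain and diet. The authors deposited 1 score for each probeset and array, on a scale with mean 8.0 and SD 2.0 within every array. The submitters' processing notes name Affymetrix Expression Console. The log base, the summarization, any batch correction and the genome build are not given in the sources used here. The score was used as deposited. Array medians were 7.83 to 7.92, and the number of arrays limits the precision, since arrays carry no counts. All value columns were used.

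Symbols were given for 26221 of the 35556 probesets. For the 2013 symbols with more than 1 probeset, that with the highest CD mean was kept. The members, the gene lists and the tests were chosen with earlier results of these data known. The genes named are the 30 most variable, the hub and 3 leading members of each group, list members in the set, genes with strain clusters, 3 on each side of the set limit and the 5 least variable, and others were chosen after their values were seen. RefSeq names (GRCm38.p6) were matched for 87 of the 100. Spread, correlations, mixtures and average-linkage groups were computed in Python (version 3.11.15) with numpy (2.4.6), scipy (1.17.1) and pandas (2.3.3), and hub fits with limma (3.58.1) in R (4.3.3). Correlations across strains followed the Pearson's r of the study's methods. Permutation tests were two-sided with 100000 draws. Scripts were tested on simulated data. The threshold for a call was 0.05 after Benjamini-Hochberg adjustment. The p-values measure the spread between strain pools, not between animals. Alternatives covered the measure of spread, the brightness limit, normalization, batch, strains, the size of the set and the correlation limit.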

Additional observations from a re-analysis of the deposited data

How the results depend on the processing

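No paired analysis was possible by replicate number, because the replicate numbers only name arrays, and so they could not serve as a block. Pairing by strain was possible, and the carry-over test used it, over 37 strains matched by name between diets. Of the 100 variable genes, between 72 and 100 stayed in the set under the median absolute deviation, the percentile range, a mean of 7 or more, both normalizations, removal of batch means, either batch alone, the omission of the parents or of BXD63, another probeset rule, 200 genes, the omission of each gene's farthest strain and the omission of the arrays low for ND6. With a mean of 9 or more, 66 stayed, because dimmer members could not enter, and with 50 genes, 50. Within 50 and 200 genes, 34 and 127 carry-over calls were made, and 1 group of 4 or more with 9 genes and 9 groups with 84 genes were found. These follow from the size of the set. Members of the LTR_Affy_10556018 group that passed on HFD numbered 1 without both parents, and the cause was not tested. Under the other alternatives 44 to 66 of the 100 genes were called in the carry-over test, and 17 to 31 had strain clusters. The share of bright genes called moved too. It was 5.91% and 6.01% beside the 44 and 45 calls in batches 1 and 2, and 17.5% to 22.7% under the rest. At a limit of r = 0.6 and in batch 1 alone, 9 of the 14 genes of the Myl2 group stayed together.

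Some carry-over correlations changed sign in a subset or by another measure. Of the called genes without clusters, Rnu2 did so, with r of -0.15 in strains with arrays in different batches. The others were not called. In those strains 12 uncalled genes with a positive r over all pairs had a negative one, from -0.63 for Fasn to -0.0039 for Rny1, and 5 of them (Snora3, Snora34, Slfn3, ND6 and Rny1) belong to the Rnu2 group. Ankrd2 had 0.0173 by Spearman's rho. In strains with both arrays in batch 1, r was -0.1401 for Myl2, -0.0396 for Tnnc1, -0.0732 for Myh7, 0.0311 for Elovl6, 0.2767 for Ankrd2, -0.0842 for Pck1 and -0.0982 for Mest. In batch 2 it was -0.1475 for Cyp2e1, -0.0976 for Snora34, -0.0287 for Rny1, -0.0473 for Mt2 and -0.0419 for Fmod. These subsets hold 12 and 17 strains, and in them 16 and 18 called genes of the 75 without clusters lost the call. Alternatives on the 6 arrays low for ND6, on the farthest strain, on the omission of BXD56 or BXD80 and on set size in the groups and carry-over were chosen after seeing the data.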
